A study of Mus musculus with 8 samples.

Results

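The T cell receptor locus segments are the 262 rows, of 34745 gene rows in the deposited table, whose symbols mark a variable, diversity, joining or constant segment of a T cell receptor chain. They were taken by symbol: names starting with Tcrg-, Trbv, Trbd, Trbj, Trbc, Trav, Traj, Trdv, Trdd or Trdj, and the names Trac and Trdc. The gamma locus (Tcrg) gave 9 rows, the beta locus (Trb) 53, the delta locus (Trd) 11 and the alpha locus (Tra) 189. Of the 262, 66 had a count in at least 1 library and 196 had none. Only 23 passed the filter on low counts and could be tested, and 43 had counts but were too low to test.

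The study sorted 3 progenitor populations from the fetal liver of mice and measured their RNA in bulk, with 2 ILC1/3P, 3 ILCP and 3 CLP libraries. All mice were labelled B6 WT and the treatment was given as none. ILC1/3P, ILCP and CLP were all sorted as live, lineage-negative cells with CD45 and CD127 on their surface and without CD25. ILC1/3P and ILCP were Flt3-negative and α4β7-positive: ILC1/3P carried CD94 but not PD-1, and ILCP carried PD-1 but not CD94. CLP were Flt3-positive. The labels do not give a gestational age, a cell number, or whether replicates came from separate litters, and 1 label field names an adult age that goes against the fetal tissue. P-values therefore measure the spread between these libraries, which may be technical.

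T cell receptor chains are built from gene segments that recombine in developing T cells: a variable, sometimes a diversity, and a joining segment are joined, and the joined unit is spliced to a constant region. The gamma and alpha chains have no diversity segments, and the beta and delta chains do. The recombination is made by the RAG proteins, and unjoined segments and constant regions can also be transcribed, which gives germline transcripts without a complete receptor. Counts per segment do not show whether a transcript came from joined or unjoined DNA. In bulk libraries, more cells with a transcript and more RNA per cell cannot be told apart.

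The joining segments on which the beta locus results turn are printed here from the GENCODE M21 annotation transcripts (GRCm38, mm10), 5′ to 3′ on the plus strand. They show how short these features are and how the segments of a cluster differ. Trbj1-1 lies at chr6:41533864-41533911, 651 bases after the diversity segment Trbd1, and Trbj2-1 lies at chr6:41542754-41542803, 577 bases after Trbd2. Capitals mark the codons of the Phe-Gly-X-Gly turn, where the segment holds them in the searched form. The search used TTTGGNNNNGG or TTCGGNNNNGG on both strands.
Trbj1-1: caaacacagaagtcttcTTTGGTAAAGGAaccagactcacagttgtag
Trbj1-2: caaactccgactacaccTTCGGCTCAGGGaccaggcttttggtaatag
Trbj1-7: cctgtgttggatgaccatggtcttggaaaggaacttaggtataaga
Trbj2-1: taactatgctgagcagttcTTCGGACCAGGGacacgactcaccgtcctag
Trbj2-6: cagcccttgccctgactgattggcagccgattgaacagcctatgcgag
Trbj2-7: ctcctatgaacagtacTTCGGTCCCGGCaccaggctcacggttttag
The pattern was found on the sense strand of 11 of the 14 beta joining segments (78.6%), of 43 of the 60 alpha ones (71.7%) and of 2 of the 2 delta ones. Of the 4 gamma ones, which carry Trgj symbols, 0 held these letters. The pattern was found in 239 of 58787 windows of 50 bases taken from protein-coding transcripts (0.407%). Trbj1-6, Trbj1-7 and Trbj2-6, which the annotation lists as a pseudogene, do not hold these letters.

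Within the gamma locus, Tcrg-C1, Tcrg-C2 and Tcrg-C3 are near copies of one another in exon 1, and Tcrg-C4 differs more. Within the beta locus, Trbc1 and Trbc2 are near copies. This bears on how reads of these genes can be assigned. The first 90 bases of exon 1 of the 4 gamma constant genes are printed below, with the bases that differ from Tcrg-C1 in capitals. In Tcrg-C1 they lie at chr13:19214103-19214192 on the plus strand. A 60-base window of exon 1 of the 2 beta constant genes follows (chr6:41538447-41538506 in Trbc1 and chr6:41546959-41547018 in Trbc2, plus strand), with the base in which Trbc2 differs in capitals.
Tcrg-C1: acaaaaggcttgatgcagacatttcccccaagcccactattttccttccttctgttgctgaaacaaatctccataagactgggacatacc
Tcrg-C2: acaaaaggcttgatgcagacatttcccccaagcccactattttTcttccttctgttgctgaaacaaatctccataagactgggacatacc
Tcrg-C3: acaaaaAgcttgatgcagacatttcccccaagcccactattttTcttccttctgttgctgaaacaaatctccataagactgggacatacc
Tcrg-C4: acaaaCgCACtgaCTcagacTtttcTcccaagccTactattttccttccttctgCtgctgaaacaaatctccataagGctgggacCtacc
Trbc1: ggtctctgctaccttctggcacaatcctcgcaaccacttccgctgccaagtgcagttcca
Trbc2: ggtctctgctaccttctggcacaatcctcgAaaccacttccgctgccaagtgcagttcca
Over the 330 bases of exon 1, Tcrg-C2 was 97.3% identical to Tcrg-C1, Tcrg-C3 96.1% and Tcrg-C4 82.1%. Of the 50-base windows of Tcrg-C1, 17.9% also occurred in Tcrg-C2, 17.6% in Tcrg-C3 and 0 in Tcrg-C4. Exon 1 of Trbc1 and Trbc2 differed at 1 of 375 bases, and 41.1% of the 50-base windows of Trbc1 also occurred in Trbc2. How reads that fit several copies were counted is not given in the sources used here, so the split among Tcrg-C1, Tcrg-C2 and Tcrg-C3 and between Trbc1 and Trbc2 is uncertain, and their sums are less so.

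Total counts were 8082476 and 6310739 in ILC1/3P libraries, 6043940 to 6905448 in ILCP libraries and 4991939 to 7167619 in CLP libraries. Levels are given as CPM, the counts per 1000000 counts of the TMM-scaled library size. The TMM factors were 0.753 and 0.671 in ILC1/3P against 1.05 to 1.23 in the other libraries, so ILC1/3P levels depend on the scaling. Over the 13436 genes tested, the median log2 change against CLP was 0.01 in ILCP and -0.25 in ILC1/3P, and it was -0.23 between ILC1/3P and ILCP. With library size alone, both medians of ILC1/3P moved, to -0.93 against CLP and -0.86 against ILCP.

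Constant regions of the gamma, beta and delta loci were higher in ILC1/3P and ILCP than in CLP, save Tcrg-C3, which was not called, and the alpha locus had few counts in every group. All segments together took 0.525% and 0.572% of all counts in the ILC1/3P libraries, 0.892% to 1.25% in the ILCP libraries and 0.0572% to 0.078% in the CLP libraries. Constant regions held 96.4% to 98.4% of these counts in every library. In ILCP against CLP, 12 segments of the 23 tested were higher and 0 lower at an adjusted p under 0.05 (edgeR quasi-likelihood test, Benjamini-Hochberg over all genes), where 3.91% of all genes were higher and 2.87% lower. None was lower at an unadjusted p under 0.05 either, and DESeq2 called 0 lower. In ILC1/3P against CLP, 13 were higher and 1 lower, where 11.8% of all genes were higher and 11.7% lower. In ILC1/3P against ILCP, 1 was higher and 1 lower, where 8.06% of all genes were higher and 8.25% lower. With library size alone, 0 were higher and 4 lower in that last comparison. Libraries of the groups did not overlap, with the first group higher, for 20 segments in ILCP against CLP (14.1% of all genes), 19 in ILC1/3P against CLP (23.3%) and 4 in ILC1/3P against ILCP (20.2%). The first group lay wholly lower for 0, 1 and 11 segments, against 14.0%, 29.1% and 24.7% of all genes. Segments that are silent in CLP passed the filter only through their level in the other groups, so these counts describe the tested segments and not all 262. The 2 comparisons against CLP share the CLP libraries, and 12 segments were called higher in both.

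**Figure D1:**
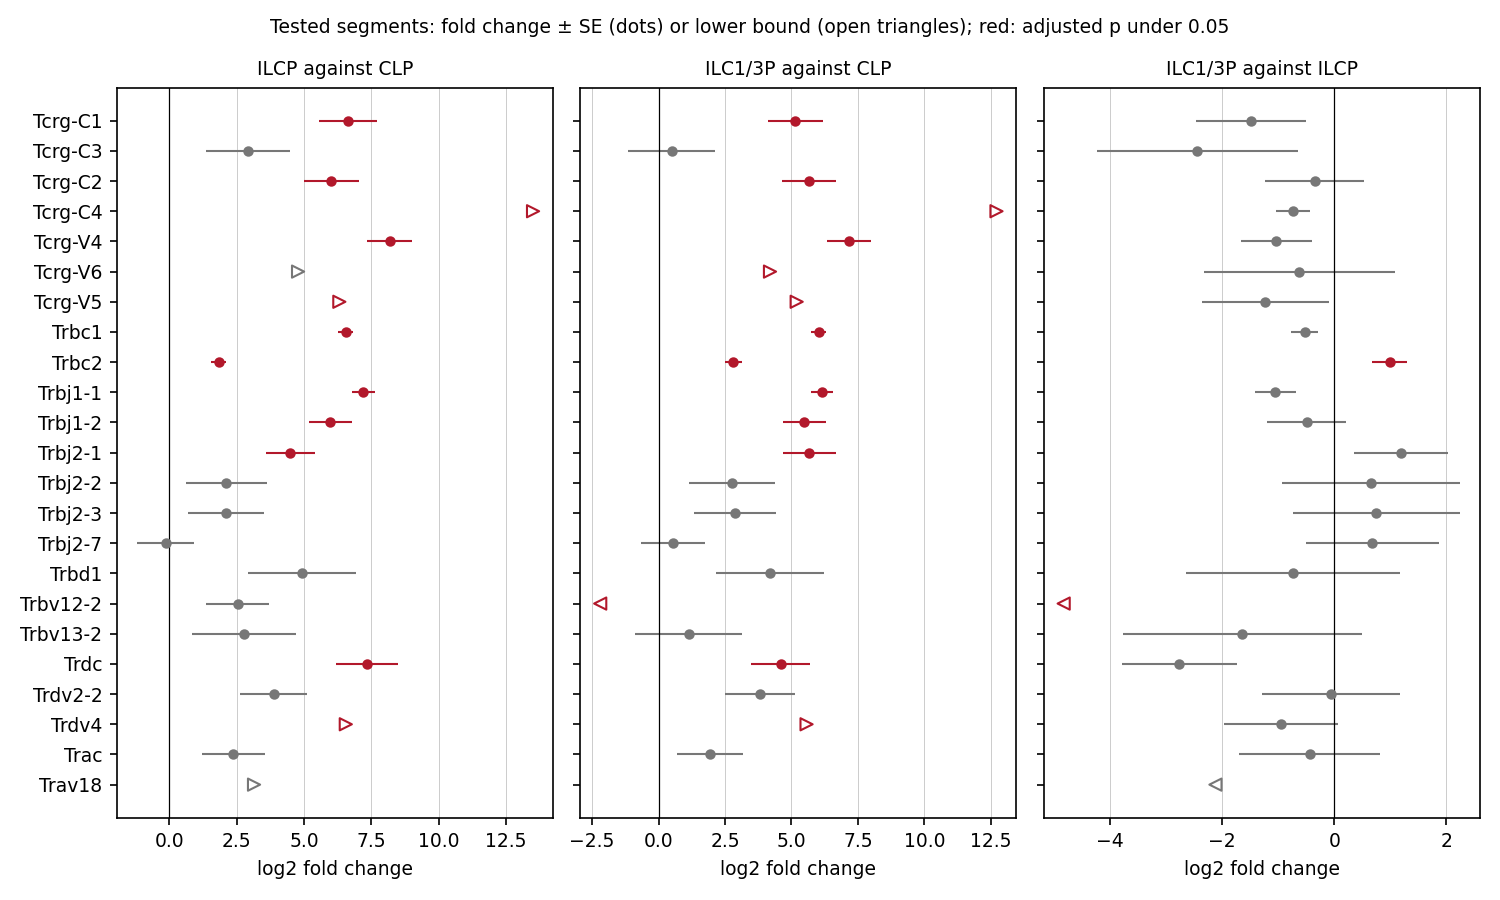
Log2 fold change of each tested segment in ILCP against CLP (left), ILC1/3P against CLP (middle) and ILC1/3P against ILCP (right), with dots and bars for the estimate ± SE and open triangles for the lower bound where a group had no counts; red marks an adjusted p under 0.05. Most red symbols lie right of 0 in both panels against CLP, and only Trbc2 and Trbv12-2 are red in the panel of ILC1/3P against ILCP.

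At the gamma locus 3 of the 4 constant regions were higher in both ILC1/3P and ILCP than in CLP. Tcrg-C1 (chr13:19214103-19217024, plus strand), the constant region joined to the Tcrg-V4, V5, V6 and V7 variable segments, had 1224 and 1439 CPM in ILC1/3P, 2541, 5050 and 3517 CPM in ILCP, and 97.5, 2.39 and 11.3 CPM in CLP. Every ILC1/3P and ILCP library lay above every CLP library. The log2 change was 6.63 ± 1.07 (SE) in ILCP against CLP (adjusted p = 0.00268) and 5.15 ± 1.03 in ILC1/3P against CLP (adjusted p = 0.00404). The first CLP library held 860 of the 949 CLP counts, and without it the log2 changes became 9.05 and 7.57. Without the low-count filter both calls were lost, at an adjusted p of 0.068 for ILCP and 0.0648 for ILC1/3P against CLP.

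Tcrg-C4 (chr13:19344558-19352756, plus strand), the constant region of a separate gamma cluster, had 776 and 1229 CPM in ILC1/3P, 1381, 2016 and 1592 CPM in ILCP, and no counts in any CLP library. The 3 counts that a total of 0 allows over the CLP libraries correspond to 0.143 CPM. Against that floor, Tcrg-C4 was at least 11665-fold higher in ILCP (adjusted p = 7.08e-07) and at least 6734-fold higher in ILC1/3P (adjusted p = 7.27e-07). It shares no 50-base window with Tcrg-C1.

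Tcrg-C2 (chr13:19304649-19307551), a further gamma constant region that lies on the minus strand, had 76.8 and 39.9 CPM in ILC1/3P, 63.9, 83.2 and 76.6 CPM in ILCP, and 3.06, 0 and 0 CPM in CLP. The log2 change was 6.02 ± 1.01 in ILCP (adjusted p = 0.00309, or 0.0573 without the low-count filter) and 5.67 ± 1.02 in ILC1/3P (adjusted p = 0.00213). Tcrg-C3 had 4.77 and 1.18 CPM in ILC1/3P, 4.12, 19.1 and 25.9 CPM in ILCP, and 6.23, 0 and 0 CPM in CLP. Its groups overlapped through the first CLP library, and it was not called against CLP (adjusted p = 0.34 in ILCP and 0.863 in ILC1/3P). Without that library it was called in both, with fitted log2 changes of 9.68 and 7.24. That CLP library held all CLP counts of both genes. Without it the fitted log2 change of Tcrg-C2 was 11.87 in ILCP and 11.52 in ILC1/3P. These fits compare with an empty CLP group, so the sizes of their log2 changes are not estimates of the difference.

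Among the gamma constant counts, Tcrg-C4 made up 37.3% and 45.4% in ILC1/3P, 34.6%, 28.1% and 30.5% in ILCP, and 0% in each CLP library. Its share in ILC1/3P lay above its share in ILCP in every library, and an exact two-sided permutation test over libraries gave p = 0.2, the smallest that 2 against 3 libraries allow. Tcrg-C1 made up the rest almost alone, with 58.8% and 53.1% in ILC1/3P, 63.7% to 70.5% in ILCP and 91.3% to 100% in CLP. In CLP libraries 2 and 3 these shares rest on 13 and 76 counts.

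**Figure D2:**
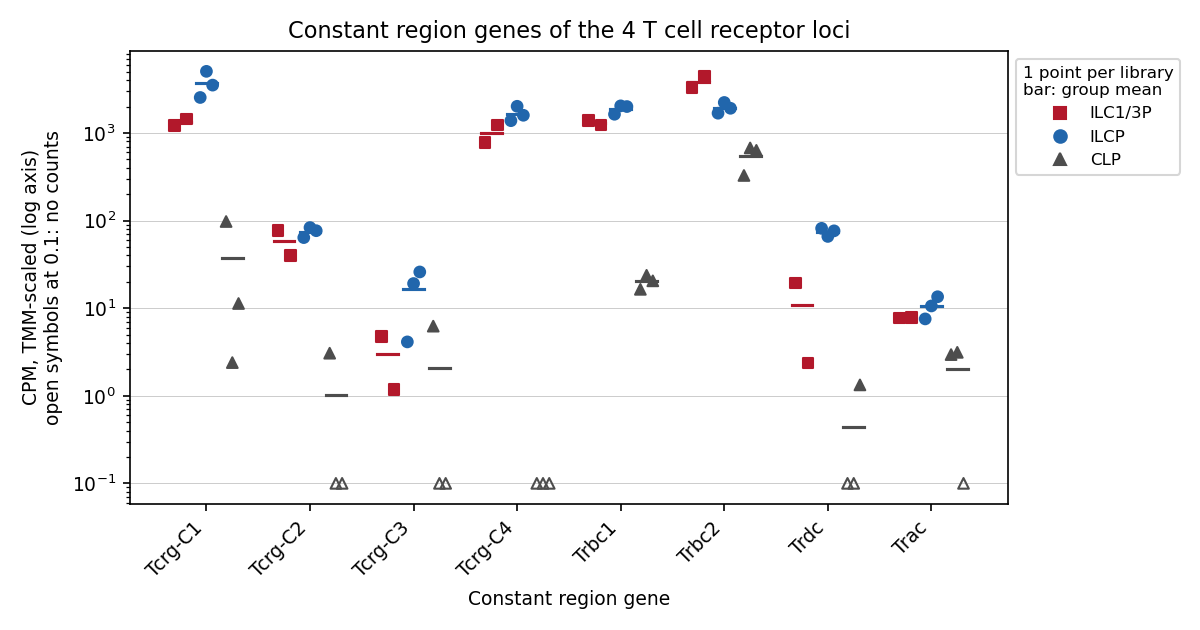
CPM of the constant region genes of the gamma, beta, delta and alpha loci on a log axis, with 1 point per library, a bar for the group mean, and open symbols for libraries without counts. The ILC1/3P and ILCP points lie far above the CLP points for Tcrg-C1, Tcrg-C4 and Trbc1, the gap is smaller for Trbc2, and Trac is low in every group.

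The gamma variable segments, which encode the antigen-binding end of the chain, followed at much lower levels, and 4 of the 5 were seen in ILC1/3P, 5 in ILCP and 1 in CLP. Tcrg-V4 (chr13:19184974-19185506) had 61.8 and 54.1 CPM in ILC1/3P, 93.6, 147 and 115 CPM in ILCP, and 0, 0 and 1.19 CPM in CLP. Against CLP this was a log2 change of 8.19 ± 0.83 in ILCP (adjusted p = 8.89e-05) and of 7.16 ± 0.83 in ILC1/3P (adjusted p = 0.000138). Without the third CLP library, which held all the CLP counts, these became 12.60 and 11.57. That fit compares with an empty CLP group, so the sizes of these 2 values are not estimates of the difference. Tcrg-V4 took 85.8% and 89.8% of the gamma variable counts in ILC1/3P, 83.2%, 88.2% and 92.0% in ILCP, and 8 of 8 such counts in CLP. Its exons overlap those of Gm31887, and the use of strand is not given in the sources used here.

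Tcrg-V5 and Tcrg-V6, the variable segments of the earliest fetal gamma delta T cells in mouse, had no counts in CLP. Tcrg-V5 had 7.24 and 2.36 CPM in ILC1/3P and 11.8, 13.8 and 8.45 CPM in ILCP. It was at least 79.6-fold higher in ILCP (adjusted p = 0.00591) and at least 36.7-fold higher in ILC1/3P (adjusted p = 0.00511). Tcrg-V6 had 2.96 and 2.13 CPM in ILC1/3P and 6.40, 4.42 and 0.985 CPM in ILCP. It was at least 18.3-fold higher in ILC1/3P (adjusted p = 0.0379). That call was lost in 7 of the 8 fits without 1 library, and with the replicate block (adjusted p = 0.141). In ILCP its bound was at least 27.5-fold and its adjusted p was 0.0641, and it was called there with DESeq2 (adjusted p = 0.00154) and without the low-count filter (adjusted p = 0.0432), over a range of 0.00154 to 0.188. Tcrg-V7 had at most 7 counts in a library of ILC1/3P or ILCP and none in CLP, and Tcrg-V3 had 10 counts in 1 ILCP library alone.

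Per 1000 gamma constant counts there were 34.6 and 22.2 gamma variable counts in ILC1/3P and 28.2, 23.3 and 24.0 in ILCP. The groups overlapped in this ratio. In CLP the ratio was 0 in 2 libraries and rested on 8 variable and 76 constant counts in the other.

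Between ILC1/3P and ILCP, every gamma segment tested except Tcrg-C2, Tcrg-C3 and Tcrg-V6 lay lower in each ILC1/3P library than in any ILCP library, and none was called. Tcrg-C1 differed by a log2 change of -1.48 ± 0.98 (adjusted p = 0.344), and it was called with these groups fitted alone. Tcrg-C4 differed by -0.73 ± 0.30 (adjusted p = 0.133), and it was called lower with library size alone. Tcrg-V4 differed by -1.03 ± 0.64 (adjusted p = 0.311).

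**Figure D3:**
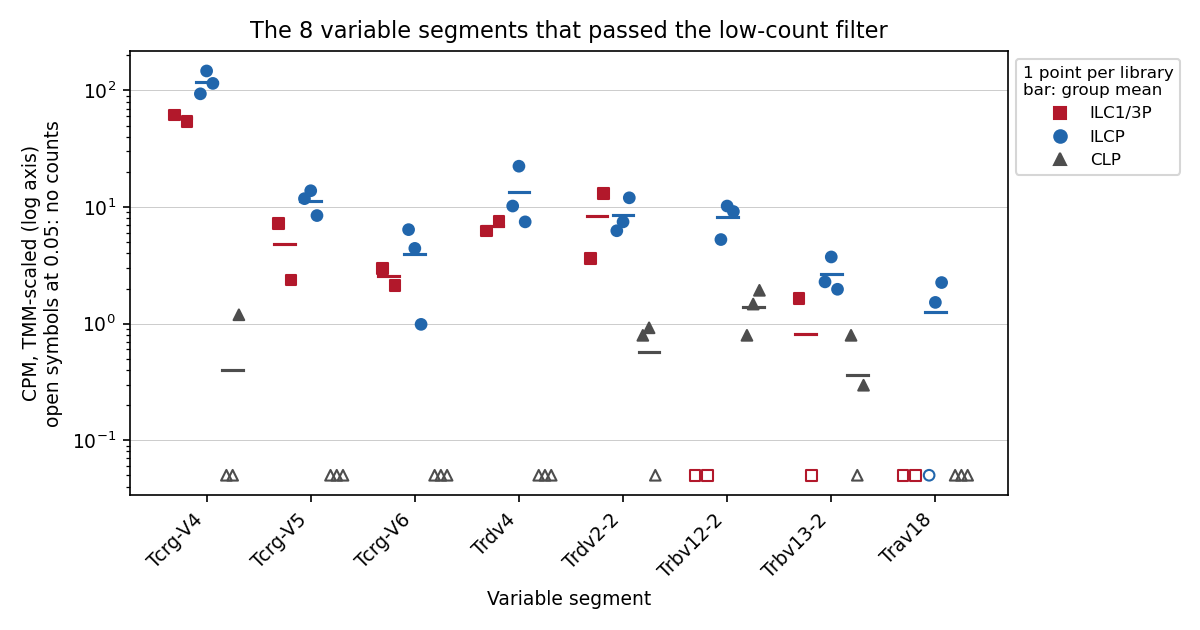
CPM of the 8 variable segments that passed the low-count filter on a log axis, with 1 point per library, a bar for the group mean, and open symbols for libraries without counts. Tcrg-V4 is the most abundant in ILC1/3P and ILCP, Tcrg-V5, Tcrg-V6 and Trdv4 have no counts in CLP, and Trbv12-2 has counts in every ILCP and CLP library but in neither ILC1/3P library.

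At the beta locus both constant regions were higher than in CLP, by different amounts. Trbc1 (chr6:41538218-41539881), which lies behind the Trbj1 cluster, had 1386 and 1235 CPM in ILC1/3P, 1635, 2039 and 2002 CPM in ILCP, and 16.4, 23.7 and 20.5 CPM in CLP. Trbc1 rose by a log2 change of 6.55 ± 0.27 in ILCP (adjusted p = 2.66e-07) and of 6.02 ± 0.27 in ILC1/3P (adjusted p = 4.24e-07). Trbc2 (chr6:41546730-41548352), which lies behind the Trbj2 cluster, had 3304 and 4396 CPM in ILC1/3P, 1681, 2229 and 1913 CPM in ILCP, and 327, 674 and 633 CPM in CLP. For Trbc2 the log2 change was 1.83 ± 0.29 in ILCP (adjusted p = 0.00209) and 2.82 ± 0.32 in ILC1/3P (adjusted p = 0.000113). In CLP, Trbc2 averaged 545 ± 189 CPM and Trbc1 20.2 ± 3.65 CPM (SD, n = 3).

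Trbc1 made up 29.5% and 21.9% of the beta constant counts in ILC1/3P, 49.3%, 47.8% and 51.1% in ILCP, and 4.78%, 3.40% and 3.13% in CLP. No group overlapped another in this share. The exact two-sided permutation p was 0.1 for ILCP against CLP and 0.2 for each of the other comparisons, the smallest that these library numbers allow. In ILC1/3P against ILCP, the log2 change of Trbc2 was 0.99 ± 0.31 (adjusted p = 0.0498), and Trbc1 differed by -0.53 ± 0.24 (adjusted p = 0.168). The Trbc2 call was lost in 9 of 16 alternatives, with an adjusted p of up to 0.36. With library size alone Trbc1 was called lower and Trbc2 was not called.

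The joining segments, which link the variable part of the chain to the constant region, also differed by cluster. The 7 Trbj1 segments summed to 72.7 ± 7.90 CPM in ILC1/3P (n = 2), 140 ± 19.2 in ILCP and 1.24 ± 0.309 in CLP (SD, n = 3 in each). The 7 Trbj2 segments summed to 30.0 ± 9.67 CPM in ILC1/3P, 15.6 ± 2.75 in ILCP and 5.04 ± 0.851 in CLP. The Trbj1 cluster held 77.1% and 64.5% of all beta joining counts in ILC1/3P, 90.4%, 89.0% and 90.6% in ILCP, and 25%, 20.5% and 14.3% in CLP. No group overlapped another in this share either (exact two-sided permutation p = 0.1 for ILCP against CLP and 0.2 for the others, again the smallest possible).

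Within each cluster the segment next to the diversity segment was the most abundant in ILC1/3P and ILCP. Trbj1-1 had 61.0 and 50.8 CPM in ILC1/3P, 97.8, 122 and 129 CPM in ILCP, and 0.793, 1.10 and 0.445 CPM in CLP. Trbj1-1 rose by a log2 change of 7.21 ± 0.43 in ILCP (adjusted p = 2.32e-06) and 6.15 ± 0.43 in ILC1/3P (adjusted p = 4.04e-06). Trbj1-2, 788 bases after Trbd1, had 14.8 and 12.5 CPM in ILC1/3P, 14.9, 21.4 and 21.1 CPM in ILCP, and 0.34, 0.368 and 0.148 CPM in CLP. Its log2 change was 5.98 ± 0.81 in ILCP (adjusted p = 0.000667) and 5.49 ± 0.82 in ILC1/3P (adjusted p = 0.000616). The other segments of the cluster, Trbj1-3 to Trbj1-7, had 3 to 12 pooled counts in ILC1/3P, 15 to 26 in ILCP and 0 to 2 in CLP, and were too low to test. Trbj1-1 therefore held 77.9% and 75.7% of the Trbj1 counts in ILC1/3P and 82.5% to 83.2% in ILCP. In CLP it held 50% to 75% of 6 to 12 counts.

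Trbj2-1 had 13.0 and 21.7 CPM in ILC1/3P, 5.69, 8.98 and 8.17 CPM in ILCP, and 0.453, 0.184 and 0.296 CPM in CLP. Trbj2-1 rose by a log2 change of 4.49 ± 0.91 in ILCP (adjusted p = 0.0105) and 5.68 ± 0.98 in ILC1/3P (adjusted p = 0.00165). Both ILC1/3P libraries lay above all ILCP libraries, opposite to Trbj1-1, yet neither segment was called in ILC1/3P against ILCP (adjusted p = 0.372 for Trbj2-1 and 0.0679 for Trbj1-1). With library size alone or with DESeq2, Trbj1-1 was called lower.

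Trbj2-7, the last segment before Trbc2, was not called in any comparison. It had 4.44 and 4.73 CPM in ILC1/3P, 1.99, 3.45 and 3.10 CPM in ILCP, and 2.15, 4.05 and 3.26 CPM in CLP, so ILCP and CLP overlapped. Its log2 change was -0.14 ± 1.07 in ILCP (adjusted p = 0.977) and 0.54 ± 1.19 in ILC1/3P (adjusted p = 0.789), and the sign turned in some alternatives. It took 19.1% and 12.8% of the Trbj2 counts in ILC1/3P, 15.7% to 19.3% in ILCP and 52.8%, 71.0% and 61.1% in CLP. Trbj2-1 took 56.0% and 59.0% in ILC1/3P, 44.9% to 50.9% in ILCP and 3.23% to 11.1% in CLP. The CLP libraries lay apart from both other groups in these 2 shares, with 31 to 36 counts in the cluster per CLP library.

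Trbj2-2 and Trbj2-3 lay higher in every ILC1/3P and ILCP library than in any CLP library but were not called. Trbj2-2 averaged 2.81 ± 0.712 CPM in ILC1/3P, 1.78 ± 0.311 in ILCP and 0.396 ± 0.185 in CLP (adjusted p = 0.529 for ILCP and 0.244 for ILC1/3P against CLP). Trbj2-3 averaged 3.72 ± 1.77 CPM in ILC1/3P, 2.19 ± 0.533 in ILCP and 0.495 ± 0.136 in CLP (adjusted p = 0.489 for ILCP and 0.202 for ILC1/3P). Trbj2-4 and Trbj2-5 had at most 3 counts in a library. Trbj2-6, the annotated pseudogene, had 12 pooled counts in ILC1/3P, 15 in ILCP and 12 in CLP.

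**Figure D4:**
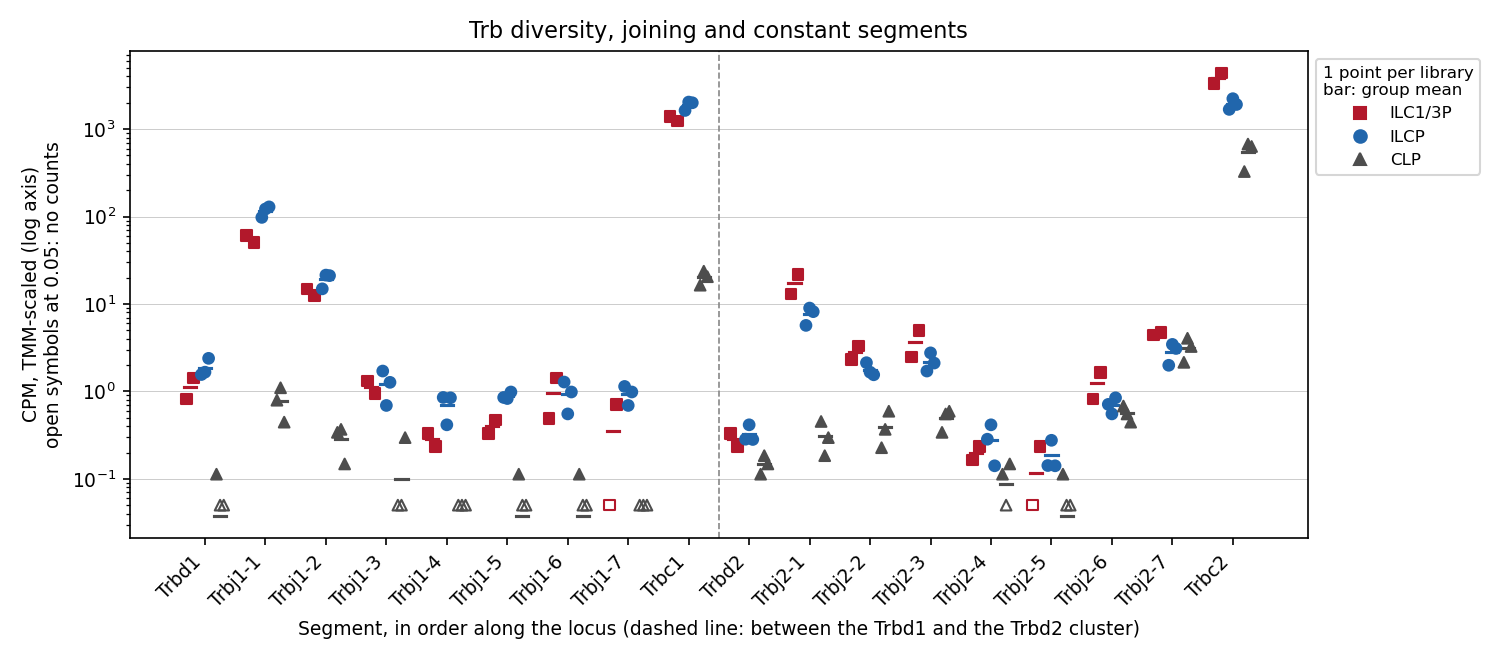
CPM of the beta diversity, joining and constant segments in their order along the locus on a log axis, with 1 point per library, a bar for the group mean, and open symbols for libraries without counts. Trbj1-1 and Trbj2-1 are the highest joining segments of their clusters in ILC1/3P and ILCP, and Trbj2-7 is the highest in CLP.

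**Figure D5:**
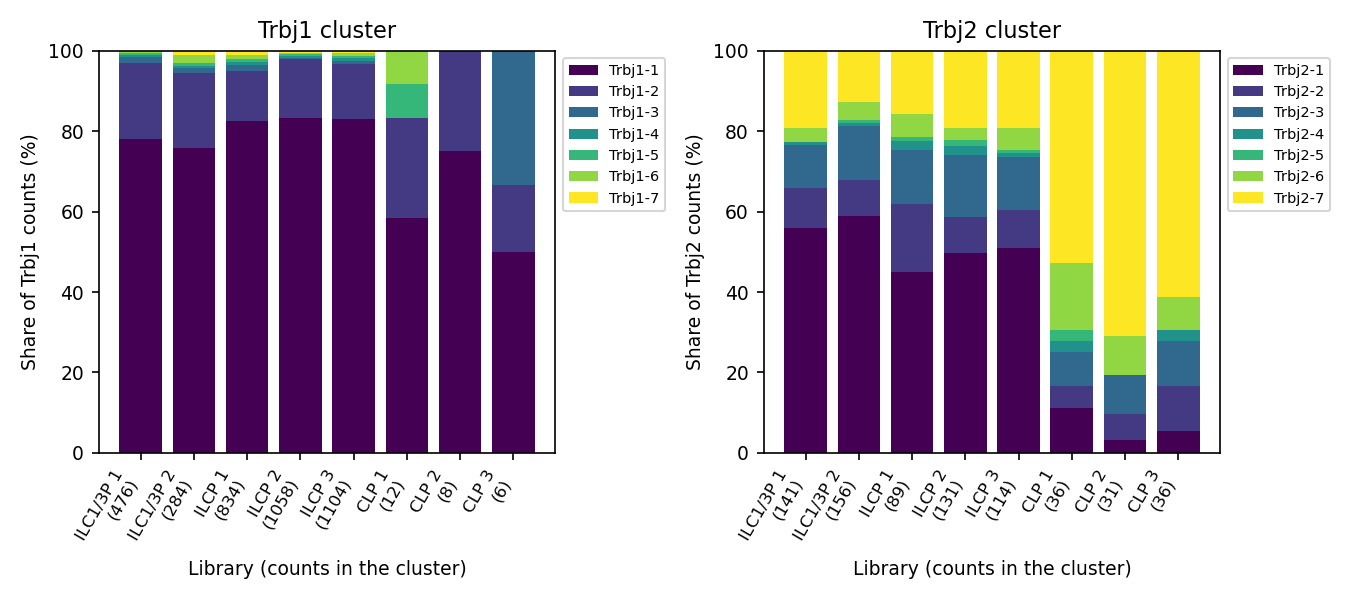
Share of each joining segment in the counts of the Trbj1 cluster (left) and the Trbj2 cluster (right), with 1 bar per library and the counts of the cluster below each bar. In the Trbj2 cluster, Trbj2-7 takes 52.8% to 71.0% in the CLP libraries and 12.8% to 19.3% in the ILC1/3P and ILCP libraries.

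The diversity segments, which add length between the variable and joining segments of a beta chain, gave few counts. Trbd1, of 12 bases, had 5 and 6 counts in ILC1/3P, 11, 12 and 17 in ILCP, and 1, 0 and 0 in CLP. The ratio of pooled levels was 39.3 in ILCP (95% counting interval 6.66 to 1591, adjusted p = 0.189) and 22.4 in ILC1/3P (3.26 to 965, adjusted p = 0.159). Trbd2 had 1 to 3 counts in every library. How a read that spans several segments was counted is not given in the sources used here, so the level of a segment this short is uncertain.

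The beta variable segments stayed low beside the constant regions. Their sum was 1.52 ± 1.81 CPM in ILC1/3P (n = 2), 12.9 ± 6.19 in ILCP and 3.40 ± 0.841 in CLP (SD, n = 3 in each). Per 1000 beta constant counts there were 0.596 and 0.042 beta variable counts in ILC1/3P, 2.32, 4.63 and 2.91 in ILCP, and 12.2, 5.01 and 3.86 in CLP. ILC1/3P lay below the other groups in this ratio, while ILCP and CLP overlapped. Beta joining counts per 1000 constant counts were 21.6 and 18.5 in ILC1/3P, 39.6, 38.5 and 43.8 in ILCP, and 15.8, 10.3 and 9.53 in CLP, and no groups overlapped.

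Of the 35 beta variable segments, 2 had counts in ILC1/3P, 7 in ILCP and 7 in CLP. Trbv12-2 (chr6:41118851-41119364) had no counts in ILC1/3P, 5.26, 10.2 and 9.15 CPM in ILCP, and 0.793, 1.47 and 1.93 CPM in CLP. It was at least 28.3-fold lower in ILC1/3P than in ILCP (adjusted p = 0.0177) and at least 4.58-fold lower than in CLP (adjusted p = 0.048). The first call was lost when 1 or the other ILC1/3P library was left out, and with the replicate block (adjusted p = 0.0635). The second was lost in 13 of 16 alternatives, with an adjusted p of up to 0.138. In ILCP against CLP its log2 change was 2.54 ± 1.17 (adjusted p = 0.257), with every ILCP library above every CLP library.

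Trbv13-2 averaged 0.822 ± 1.16 CPM in ILC1/3P, 2.66 ± 0.941 in ILCP and 0.363 ± 0.401 in CLP and was not called. Other beta variable segments had counts in few libraries. Trbv3 had 17 counts and Trbv2 had 10 in the second ILCP library and none elsewhere. Trbv31, which lies inverted behind Trbc2, had 7 counts in the second ILCP library and 15 in the first CLP library. Trbv24, which the annotation lists as a pseudogene and which was named after its values were seen, had 7, 6 and 2 counts in CLP and none elsewhere.

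The delta locus lies inside the alpha locus and is lost when alpha segments join. Trdc (chr14:54142851-54148868), its constant region, had 19.4 and 2.36 CPM in ILC1/3P, 81.5, 65.9 and 76.3 CPM in ILCP, and 0, 0 and 1.33 CPM in CLP. The ILCP libraries lay close together, while the first ILC1/3P library lay far above the second. Against CLP, Trdc rose by a log2 change of 7.35 ± 1.15 in ILCP (adjusted p = 0.00203). In ILC1/3P it rose by 4.59 ± 1.12 (adjusted p = 0.0117). The third CLP library held 9 of 9 CLP counts. Without it the fitted changes were 11.93 and 9.18 against an empty CLP group, so their sizes are not estimates of the difference. The ILC1/3P call rested on its first library: without it the log2 change was 2.38 and the call was lost, and it was also lost with ILC1/3P and CLP fitted alone (adjusted p of up to 0.206). Every ILC1/3P library lay below every ILCP library, with a log2 difference of -2.76 ± 1.03 (adjusted p = 0.0959), which was called without the first ILC1/3P library or with these groups fitted alone. The exons of Trdc overlap those of Trdv5 and Gm43434.

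Trdv4 (chr14:54074905-54075515), a delta variable segment used by fetal gamma delta T cells in mouse, had 6.25 and 7.56 CPM in ILC1/3P, 10.2, 22.4 and 7.46 CPM in ILCP, and no counts in CLP. It was at least 94-fold higher in ILCP (adjusted p = 0.0034) and at least 47.5-fold higher in ILC1/3P (adjusted p = 0.00272). Trdv2-2, whose exons overlap Gm43647, had 3.62 and 13.0 CPM in ILC1/3P, 6.26, 7.46 and 12 CPM in ILCP, and 0.793, 0.92 and 0 CPM in CLP. It lay apart from CLP in both groups and was not called (log2 change 3.87 ± 1.26, adjusted p = 0.0986 in ILCP, and 3.82 ± 1.31, adjusted p = 0.0556 in ILC1/3P). With DESeq2 it was called in ILCP (adjusted p = 0.00354) and in ILC1/3P (adjusted p = 0.00403), and in ILC1/3P also without the low-count filter and without the first ILC1/3P library. Over all alternatives its adjusted p ranged over 0.00354 to 0.226 in ILCP and 0.00403 to 0.283 in ILC1/3P. Trdj1, a delta joining segment, had 1 and 0 counts in ILC1/3P, 2, 3 and 3 in ILCP, and none in CLP. Trdd2 had 1 count in each of 2 ILCP libraries.

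The alpha locus, whose segments join last in T cell development, was nearly silent. Trac (chr14:54220521-54224206), the alpha constant region, had 7.73 and 7.80 CPM in ILC1/3P, 7.54, 10.6 and 13.5 CPM in ILCP, and 2.95, 3.13 and 0 CPM in CLP. All ILC1/3P and ILCP libraries lay above all CLP libraries, but Trac was not called (log2 change 2.37 ± 1.17, adjusted p = 0.295 in ILCP, and 1.93 ± 1.24, adjusted p = 0.285 in ILC1/3P). The 60 alpha joining segments had 1 count in all 8 libraries together, in a CLP library. Of the 128 alpha variable segments, 2 had counts in ILC1/3P, 11 in ILCP and 5 in CLP. Trav18 was the highest, with 0, 11 and 16 counts in ILCP and none in ILC1/3P or CLP, and it was not called in ILCP against CLP (adjusted p = 0.282). Trav17 had 4, 5 and 4 counts in ILCP and none elsewhere.

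Constant regions are set side by side here per kilobase of exon, on GENCODE M21 lengths. In ILC1/3P, Trbc2 stood first at 5563 ± 1115 CPM per kilobase, followed by Trbc1 at 1749 ± 142, Tcrg-C1 at 1441 ± 164 and Tcrg-C4 at 1018 ± 326 (SD, n = 2). The libraries of neighbours in this order did not overlap on these lengths, but the deposited FPKM imply 856 bases for Trbc1 where M21 has 749, so the order of Trbc1 and Tcrg-C1 is uncertain. In ILCP, Tcrg-C1 stood first at 4007 ± 1369 CPM per kilobase. Trbc2 followed at 2805 ± 397, Trbc1 at 2526 ± 298 and Tcrg-C4 at 1688 ± 328. On the M21 lengths, the ILCP libraries of Trbc2 overlapped those of Tcrg-C1 and those of Trbc1. Every Tcrg-C1 library lay above every Trbc1 library, and those of Tcrg-C4 lay below all of these. The length of 856 bases would lower Trbc1, so its separation from Tcrg-C4 in ILCP is uncertain. In CLP, Trbc2 stood first at 787 ± 274 CPM per kilobase, with Tcrg-C1 at 40.1 ± 56.8 and Trbc1 at 27.0 ± 4.88. Tcrg-C1 had 106, 2.59 and 12.2 CPM per kilobase in the CLP libraries and Trbc1 had 21.9, 31.7 and 27.3, so Tcrg-C1 lay above Trbc1 in the first CLP library alone. Tcrg-C2, Trdc, Tcrg-C3 and Trac lay under 100 CPM per kilobase in each group mean.

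The lists of other receptor pathway genes are set against the same shares and medians of all genes given above, and their levels are means ± SD over 2 ILC1/3P, 3 ILCP and 3 CLP libraries. Of 5 tested genes listed for receptor assembly, 3 in ILCP and 3 in ILC1/3P were higher than in CLP. In ILCP 5 were higher with DESeq2, without the low-count filter or without 1 or the other ILC1/3P library. Their median log2 change was 7.42 in ILCP and 5.80 in ILC1/3P, or 5.58 in ILCP and 4.86 in ILC1/3P with genes absent from CLP at their bound. Cd3g, an invariant chain of the complex, averaged 2854 ± 861 CPM in ILC1/3P, 1621 ± 432 in ILCP and 9.62 ± 8.93 in CLP (adjusted p = 0.000306 for ILC1/3P and 0.000946 for ILCP). Cd3d, another chain, averaged 157 ± 90.5 CPM in ILC1/3P, 76.7 ± 17.4 in ILCP and 0.172 ± 0.185 in CLP (adjusted p = 4.61e-06 for ILC1/3P and 1.23e-05 for ILCP). Cd3e, which the assembled complex also needs, had 0 and 9 counts in ILC1/3P, 26, 60 and 60 in ILCP, and none in CLP, and was not called (adjusted p = 0.0905 for ILC1/3P and 0.0608 for ILCP). Fcer1g, an adaptor of several receptors that was also called, averaged 4428 ± 832 CPM in ILC1/3P, 701 ± 196 in ILCP and 153 ± 66.4 in CLP. Cd247, also on this list, averaged 12.2 ± 11.2 CPM in ILC1/3P, 36.2 ± 18.5 in ILCP and 2.63 ± 2.86 in CLP. It was not called (adjusted p = 0.174 for ILC1/3P and 0.061 for ILCP). Ptcra, the untested gene of the list, had at most 8 counts in a library.

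Of 16 tested recombination genes, ILCP had 4 lower and 1 higher than CLP, and ILC1/3P had 7 lower and 3 higher. In ILC1/3P 4 were lower when any 1 CLP library was left out, and 1 was higher without the first or the third CLP library or the first ILC1/3P library. Their median log2 change was -0.37 in ILCP and -1.25 in ILC1/3P. Rag1, which cuts at the segments together with Rag2, had no counts in ILC1/3P, 0, 15 and 11 in ILCP, and 801, 822 and 589 in CLP. It was at least 362-fold lower in ILC1/3P (adjusted p = 0.000337) and lower by a log2 change of -6.48 ± 0.83 in ILCP (adjusted p = 0.000698). Rag2 averaged 3.87 ± 5.47 CPM in ILC1/3P, 16.2 ± 9.57 in ILCP and 211 ± 36.2 in CLP (adjusted p = 0.00183 for ILC1/3P and 0.00975 for ILCP). Xrcc6, which binds broken ends, averaged 32.8 ± 19 CPM in ILC1/3P, 82.5 ± 5.14 in ILCP and 551 ± 200 in CLP (adjusted p = 0.000112 for ILC1/3P and 0.000524 for ILCP). Hmgb2, a DNA-bending protein that assists RAG cutting, was higher in ILC1/3P, with 3238 ± 1153 CPM in ILC1/3P, 599 ± 144 in ILCP and 502 ± 49.8 in CLP (adjusted p = 8.43e-05 for ILC1/3P against CLP). Dntt, which adds bases at the joints, had 9 counts in CLP and none in the other groups. Both RAG genes were highest in CLP, where the mean of each gamma, beta, delta and alpha constant region was lowest. A link between these was not tested.

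Of 20 tested genes of receptor signalling, ILCP had 11 higher and 1 lower than CLP, and ILC1/3P had 10 higher and 1 lower. Their median log2 change was 3.00 in ILCP and 2.19 in ILC1/3P. Lat, a membrane adaptor, averaged 101 ± 10.8 CPM in ILC1/3P, 201 ± 8.52 in ILCP and 25.4 ± 1.17 in CLP (adjusted p = 0.000207 for ILC1/3P and 1.69e-05 for ILCP). Txk, a kinase, averaged 136 ± 12.6 CPM in ILC1/3P and 270 ± 52 CPM in ILCP and had no counts in CLP (adjusted p = 1.59e-06 for ILC1/3P and 1.21e-06 for ILCP). Themis, a regulator of T cell selection, averaged 11.4 ± 2.33 CPM in ILC1/3P and 167 ± 68.2 CPM in ILCP and had no counts in CLP, and it was lower in ILC1/3P than in ILCP (adjusted p = 0.0014). Cd2, an adhesion receptor, averaged 270 ± 113 CPM in ILC1/3P, 42.4 ± 11.6 in ILCP and 5.17 ± 3.07 in CLP. Syk, a kinase shared with B cells, was the gene lower in both. Of 18 tested regulators that bind these loci or signal upstream of them, 5 were higher and 3 lower in ILCP, and 4 were higher and 4 lower in ILC1/3P, than in CLP. With library size alone, 8 were lower in ILC1/3P. The median log2 change of this list was 0.33 in ILCP and -0.60 in ILC1/3P. Gata3, a T cell and innate lymphoid factor, averaged 79.8 ± 15.2 CPM in ILC1/3P, 215 ± 34.1 in ILCP and 2.56 ± 0.463 in CLP (adjusted p = 3.19e-06 for ILC1/3P and 1.07e-06 for ILCP). Bcl11b, a factor of T cell commitment that innate progenitors also use, averaged 10.6 ± 4.99 CPM in ILC1/3P and 83.0 ± 10.3 CPM in ILCP and had no counts in CLP (adjusted p = 0.000103 for ILC1/3P and 1.92e-05 for ILCP). Notch1, a receptor that starts the T cell program, was lower in both, with 20.1 ± 14.4 CPM in ILC1/3P, 4.26 ± 0.263 in ILCP and 97.4 ± 22.2 in CLP (adjusted p = 0.007 for ILC1/3P and 0.000131 for ILCP).

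Markers of other blood cells also differed between the groups. The lineage-negative, CD45-positive gate is meant to remove mature T, NK, B and erythroid cells, and the antibodies of the lineage mix are not listed in the labels. T cell coreceptor and maturation genes summed to 755 to 852 CPM in ILC1/3P, 1206 to 1486 in ILCP and 310 to 364 in CLP. Of the 10 tested, 5 were higher in ILCP, and 4 were higher and 2 lower in ILC1/3P, than in CLP (median log2 change 2.79 in ILCP and 0.63 in ILC1/3P). The higher genes numbered 3 in ILCP without any 1 CLP library or the first or the third ILCP library, and 2 in ILC1/3P without the second or the third CLP library or the first ILC1/3P library. Cd4 had no counts in ILC1/3P or ILCP and 12 to 55 in CLP, Cd5 had none in ILCP, and Cd8b1 had none in ILC1/3P and 126, 19 and 63 in ILCP. Cd8a, partner of Cd8b1, had 53 and 0 counts in ILC1/3P, 173, 80 and 48 in ILCP, and none in CLP. The genes called higher in ILCP than in CLP were Cd8a (adjusted p = 0.0279), Cd8b1 (adjusted p = 0.0286), Cd28, Trat1 and Icos. In ILC1/3P, Cd8a, Cd28, Trat1 and Icos were higher than in CLP, and Ccr7 and Cd27 were lower. Icos, also found on innate lymphoid cells, averaged 503 ± 8.6 CPM in ILC1/3P, 670 ± 65.6 in ILCP and 33.8 ± 14.6 in CLP and made up much of the sum.

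Gamma delta T cell genes summed to 595 to 740 CPM in ILC1/3P, 815 to 1064 in ILCP and 138 to 191 in CLP, over 11 genes that include Trdc. Of the 10 tested, 6 were higher and 1 lower in ILCP, and 5 were higher and 1 lower in ILC1/3P, than in CLP, with a median log2 change of 6.26 in ILCP and 4.18 in ILC1/3P, or 4.80 in ILCP with absent genes at their bound. Maf, a factor that innate lymphoid cells also use, was higher in both, and Blk, a kinase of B cells and gamma delta T cells, was lower in both. Sox13, a factor of these T cells, had 9 and 0 counts in ILC1/3P, 45 to 101 in ILCP and 25 to 34 in CLP, and Il17a had none in any library. NK cell genes summed to 1982 to 2065 CPM in ILC1/3P, 31.7 to 125 in ILCP and 10.3 to 14.2 in CLP, with 5 of 6 tested genes higher in ILC1/3P than in CLP and 1 higher and 1 lower in ILCP (median log2 change 7.21 in ILC1/3P and 5.48 in ILCP, or 5.68 in ILC1/3P and 3.77 in ILCP with absent genes at their bound). Without the first or the second CLP library, 3 were higher in ILC1/3P. Gzma, a granule protease of NK cells, averaged 1327 ± 108 CPM in ILC1/3P, 49.8 ± 50.5 in ILCP and 0.73 ± 1.17 in CLP. Other genes of the NK list did not follow. Prf1 and Klra8 had no counts in ILC1/3P, Klra3 had 98 and 0, and these genes were too low to test. Itga2 was tested and not called in ILC1/3P against CLP (adjusted p = 0.208). B lineage genes summed to 130 to 172 CPM in ILC1/3P, 155 to 191 in ILCP and 3123 to 4021 in CLP, with 9 of 10 lower in each group than in CLP (median log2 change -8.73 in ILC1/3P and -8.09 in ILCP, or -7.69 in ILC1/3P with absent genes at their bound). Erythroid genes summed to 18.1 to 27.2 CPM in ILC1/3P, 5.69 to 6.77 in ILCP and 7.36 to 16.5 in CLP. Of its 5 tested genes 0 were called by edgeR or by DESeq2 in any comparison, and 1 had an unadjusted p under 0.05, in ILCP against CLP. The part of any such cells in the segment levels was not tested.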

How the data were processed

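Sample titles gave the groups and replicate numbers. cDNA made with a SMARTer Ultra Low kit in lysed sorted cells was PCR-amplified and read on a NovaSeq6000 instrument, per the labels' protocols. The authors deposited 1 table holding whole-number counts per gene and FPKM values. Its genome build is mm10, per the submitters' processing notes. Neither the aligner, the counting tool nor the use of strand is named in the sources used here. FPKM values were not tested, and they served only to compare the authors' gene lengths with GENCODE M21. All 262 segments lie at the same locus in GENCODE M21, and 11 share exon bases with another gene.

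The test was edgeR 4.0.16 (R 4.3.3) on the counts: filterByExpr left 13436 genes, libraries were scaled by TMM, and a robust quasi-likelihood model with 1 mean per group was fitted to all 8 libraries (biological coefficient of variation 0.679, 5 residual degrees of freedom). Tests are two-sided, with Benjamini-Hochberg adjustment over all genes and calls at an adjusted p under 0.05. CPM use the TMM-scaled size and are given as mean ± SD over libraries. Against an empty group the fold is a bound: pooled counts of the other group over 3 counts pooled across the empty group. Ratios over 1 to 3 counts carry an exact 95% interval. Intervals and floors cover counting error only, as the labels describe no molecular identifiers. DESeq2 1.42.0 was one of the alternatives. The procedure was tested on simulated data with the same spread for all genes and changes only in well-counted genes. That test does not cover segments with few counts or an empty group.

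Named were the constant regions, the tested segments and segments with 10 or more counts in a library, 28 in all, and up to 4 genes per other list with the smallest p. Rag2, Dntt, Syk, Sox13, the coreceptor and maturation genes and the untested segments under that count were named after their values were seen. So were Cd247, Prf1, Klra8, Klra3 and Itga2. The segments, the lists (receptor assembly, recombination, signalling, regulators, T cell, gamma delta T cell, NK, B lineage and erythroid genes) and the naming rule were chosen with earlier results of these data known. A single batch date labels the whole series, which leaves no batches to compare. Replicates differed from each other by more than counting noise, and none looked like a copy of another.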

Additional observations from a re-analysis of the deposited data

How the results depend on the processing

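Over 16 alternatives (scaling, filters, DESeq2, groups fitted alone, a fit that is not robust, the replicate block and each library left out), segments called higher numbered 11 to 14 in ILCP against CLP and 11 to 14 in ILC1/3P against CLP (12 to 13 in each with 1 library left out), and 0 were lower in ILCP against CLP. The segment lower in ILC1/3P against CLP was lost (0 called) with RLE scaling, without the low-count filter, with 10 counts summed, with groups fitted alone and in every fit without 1 library (0 to 0). In ILC1/3P against ILCP, segments called higher numbered 0 with library size alone and in the fit that was not robust, and 0 to 1 without 1 library. Segments called lower there numbered 4 with library size alone, 2 with DESeq2, 3 with groups fitted alone, and 0 to 1 without 1 library. The cause was not tested.

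Signs turned only for values that were not called. Trbj2-7 in ILCP against CLP ranged over -0.36 to 0.07 with 1 library left out, and was -0.12 in ILC1/3P against CLP with library size alone. Tcrg-C3 in ILC1/3P against CLP became -0.23 with library size alone, and ranged over -0.85 to 7.24 with 1 library left out. Trbv13-2 in ILC1/3P against CLP ranged over -4.38 to 2.31 with 1 library left out. The value of 7.24 for Tcrg-C3 came from a fit with an empty CLP group. The value of -4.38 for Trbv13-2 came from a fit with an empty ILC1/3P group. The sizes of both are therefore not estimates of the difference. In ILC1/3P against ILCP, Trbj2-2 became -0.0022 with library size alone, Tcrg-C2 ranged over -0.90 to 0.05 with 1 library left out, and Trdv2-2 became 0.05 with RLE and 0.04 with DESeq2 and ranged over -1.23 to 0.60 with 1 library left out.

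Titles give groups the same replicate numbers. Deviations of same-numbered libraries from their group means correlated weakly, at 0.121, 0.0701 and -0.00492 for ILCP with CLP. For ILC1/3P the values were -0.0179 and -0.0343 with CLP, and -0.00429 and 0.00508 with ILCP. The first and the second CLP library correlated best with the ILCP library of their own number, and the third did not. With 2 or 3 libraries per group, these values cannot settle whether the libraries were paired. With the replicate block, 12 segments were higher in ILCP against CLP, 12 higher and 0 lower in ILC1/3P against CLP, and 1 higher and 0 lower in ILC1/3P against ILCP.

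Depth limits the segments under about 10 counts in a library: most variable segments and the diversity segments other than Trbd1 could not be tested, and an empty CLP group allows up to 0.143 CPM. Counts of the other gene lists moved by over 1.5 times in some alternatives. In ILCP against CLP, genes called higher numbered 3 to 5 for receptor assembly, 3 to 7 for coreceptors and maturation and 1 to 3 for NK cells. In ILC1/3P against CLP, genes called higher numbered 1 to 3 for recombination, 2 to 4 for coreceptors and maturation and 3 to 6 for NK cells. There, genes called lower numbered 4 to 8 for recombination, 3 to 8 for regulators and 1 to 3 for signalling.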

Other observations

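Some gamma locus rows carry other symbols and were left out by the naming rule above. Trgj4, the joining segment before Tcrg-C4, had 15 and 21 counts in ILC1/3P, 55, 77 and 66 in ILCP, and none in CLP (adjusted p = 0.00805 for ILC1/3P and 0.00887 for ILCP against CLP, edgeR). Trgj1, the joining segment before Tcrg-C1, had 13 and 13 counts in ILC1/3P, 16, 20 and 19 in ILCP, and 1, 0 and 2 in CLP, and was not called (adjusted p = 0.124 and 0.207). Trgj4 thus had more counts than Trgj1 in each ILC1/3P and ILCP library, though only 15 against 13 in the first ILC1/3P library. In CLP the few counts were those of Trgj1. Tcrg-C1 was the more abundant constant region in every group. Trgv2, a variable segment, had 0 and 3 counts in ILC1/3P, 0, 0 and 26 in ILCP, and none in CLP. Trgj2 had at most 7 counts in a library and Trgj3 had none.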
